A study of Mus musculus with 6 samples.

Results

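Molecular chaperones were followed in the RNA of mouse colonic organoids, as 42 genes chosen by symbol: the heat shock factors, the Hsp70 and Hsp110 proteins, Hsp90 with its cochaperones, small heat shock proteins, cytosolic J-domain and BAG proteins, subunits of the TRiC chaperonin, and the chaperones and proteases of mitochondria. All 42 were found among the 25067 rows of the deposited values, and all 42 were among the 13210 rows with enough signal to be tested (a mean normalized count of at least 10). Organoids, which are crypt epithelium grown as closed spheres in a gel, came from C57BL/6 mice labelled as 8 weeks old, and every library carried Prkci f/f and Prkcz f/f alleles together with Villin-CreERT2. In this genotype the 2 genes of the atypical protein kinase C (aPKC) enzymes carry loxP sites, and the Villin promoter drives a tamoxifen-activated Cre recombinase in intestinal epithelium. Upon passage the organoids received 4-OH tamoxifen (4-OHT, 3 libraries) or ethanol as vehicle (3 libraries) and were cultured for 3 days. The vehicle libraries, described as wild type in the labels, therefore carried the same floxed alleles and the same Cre. The design holds no 4-OHT-treated organoids that lack the floxed alleles or lack the recombinase, so that loss of aPKC, Cre activity and 4-OHT itself cannot be told apart. The labels number the libraries but do not say whether they came from separate animals or cultures, and p-values therefore measure only the spread between these libraries.

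Chaperones bind unfolded or partly folded proteins and keep them from aggregating while they fold, are transported or are degraded. In the cytosol J-domain proteins pass clients to Hsp70, nucleotide exchange factors of the BAG and Hsp110 families release them, and Hsp90 and the TRiC chaperonin take over selected clients such as kinases, actin and tubulin. Mitochondria hold a separate set, with an Hsp70 that draws proteins in, the Hsp60 and Hsp10 chaperonin that folds them, and ATP-dependent proteases that remove them. When unfolded protein accumulates, heat shock factor 1 binds heat shock elements in promoters and switches many of these genes on, and the continuously renewed epithelium of the colonic crypt makes most of them without stress.

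The libraries held between 15804709 and 26957612 recovered reads, of which the 10 most abundant genes took between 5.93% and 6.61% and the mitochondrial genome between 1.82% and 1.99%. Prkcz read 879.8, 904 and 954 normalized counts (reads divided by a size factor per library) in vehicle libraries 1, 2 and 3 and 287, 265 and 290.3 in 4-OHT libraries 1, 2 and 3 (log2 fold change -1.70, SE 0.076, adjusted p = 3.2e-12 by limma). Prkci read 3603, 3526 and 3429.7 in vehicle and 2869, 3105 and 3089 in 4-OHT (log2 fold change -0.22, SE 0.048, adjusted p = 8.1e-04), a fall that left most of its signal in place. The sources used here do not say which part of each gene lies between the loxP sites. How complete the recombination was cannot be read from counts over the whole gene. The labelled tissue was borne out by its markers, since all 15 genes of a colonic epithelium list were detected and together took 22328 to 22793 reads per 1000000 in vehicle and 28482 to 30401 in 4-OHT, 9 of them higher and 3 lower. Small-intestinal Paneth and ileal genes summed to 29.7, 39.1 and 32.1 reads per 1000000 in vehicle and to 48.4, 100.01 and 91.3 in 4-OHT (7 of 11 higher, 3 of 11 at 0 in every vehicle library), while the fibroblast, smooth muscle, vessel and leukocyte lists stayed between 0.147 and 11.1, with the smooth muscle and leukocyte sums highest in 4-OHT libraries 2 and 3. The plasma cell list took 585 to 617 reads per 1000000 in vehicle and 910 to 930.4 in 4-OHT, nearly all of it from Sdc1, which epithelium also makes (11187, 11187 and 11806 normalized counts in vehicle and 18104, 18606 and 18572 in 4-OHT). The other 4 genes found were at 0 in vehicle, and Igha, an immunoglobulin heavy chain, read 1.03, 139.9 and 45.5 in 4-OHT libraries 1, 2 and 3. All 10 genes of a proliferation list were lower in 4-OHT (median log2 fold change -0.65). What part these shifts had in the chaperone values was not tested, and in bulk RNA fewer cells of a type and less RNA per cell cannot be told apart.

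The chaperone genes did not move as 1 block. Of the 42, 8 rose and 11 fell at a limma adjusted p below 0.05, and 23 did not pass. The called share was 45.2%, beside 43.6% of all rows tested, so that the number of changed chaperone genes was near the background. The median log2 fold change of the 42 was -0.055, beside -0.0054 for all rows tested. Split by compartment, the counts were uneven in direction. Of the 9 mitochondrial members 7 fell and 2 did not pass, and their median log2 fold change was -0.31, whereas of the 33 cytosolic and nuclear members 8 rose and 4 fell, with a median of 0.010. Over all rows, 22.7% were called higher and 21.0% lower. The 3 values of one group lay wholly above the 3 of the other for 11 members in the direction of 4-OHT and for 13 in the direction of vehicle, beside 52.1% of all rows (26.8% higher, 25.3% lower in 4-OHT). Under quantile normalization the split was 7 higher and 19 lower, the additional falls lying in the cytosolic members. In a principal component analysis of the rows tested, the first component (58.2% of variance) separated vehicle from 4-OHT libraries. On the second (14.1%) 4-OHT library 1 lay at -26.8 and 4-OHT libraries 2 and 3 at 10.5 and 10.9. The treated libraries were thus not all alike, and what set library 1 apart was not tested. With 4-OHT library 1 alone against the vehicle libraries, where the lone library is assumed to vary as the vehicle libraries do, 7 members were higher and 10 lower. Among the mitochondrial members Trap1 (-0.10, adjusted p = 0.259) was then not called and Clpp (-0.26, adjusted p = 0.0319) was. Changes were small for most genes, and 39 of the 42 lay within 0.6 log2 units of 0, Hspb1 (1.96), Hspa2 (0.71) and Lonp1 (-0.72) being the exceptions.

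**Figure D1:**
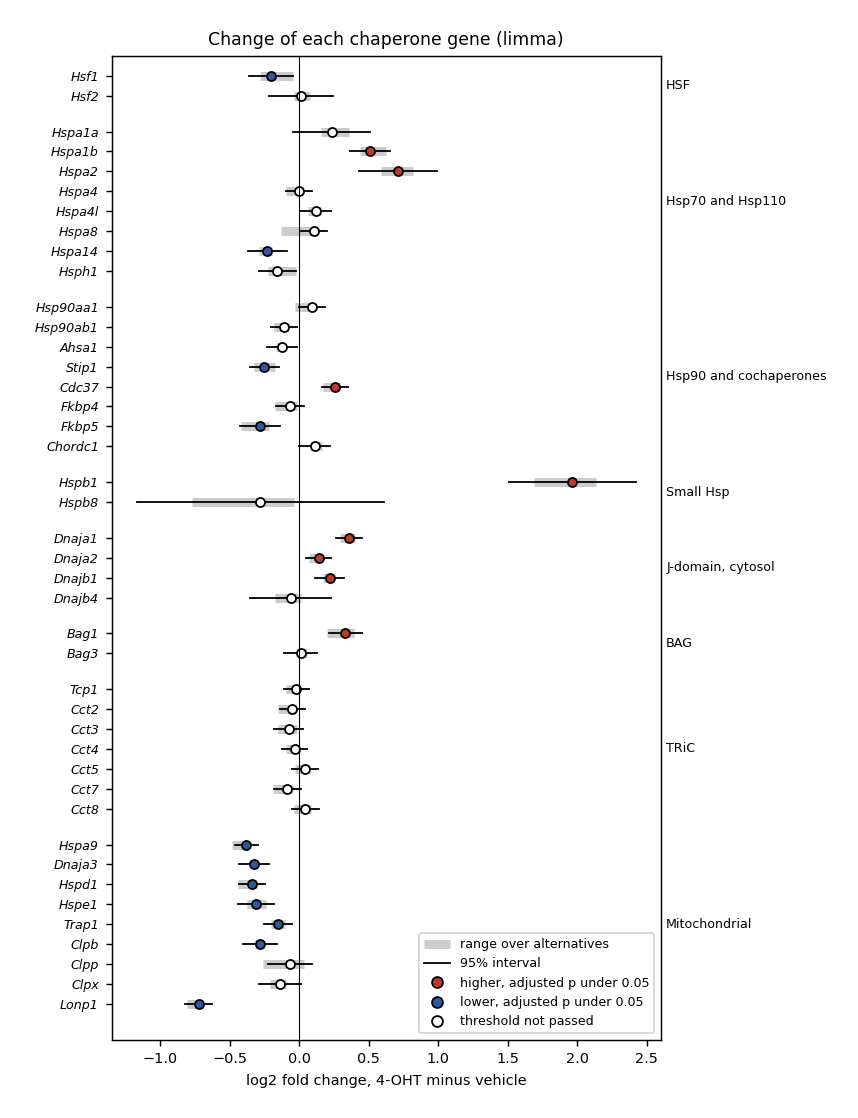
Log2 fold change of each of the 42 chaperone genes (x axis, 4-OHT minus vehicle) with its 95% interval, ordered by role; red and blue points passed an adjusted p of 0.05 and grey bars span the values under 16 other settings. Hspb1 at 1.96 and Lonp1 at -0.72 lie farthest from 0, the intervals of all 7 TRiC genes include 0, and the grey bar of Hspa8 crosses 0 because its sign turned under quantile normalization.

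**Figure D2:**
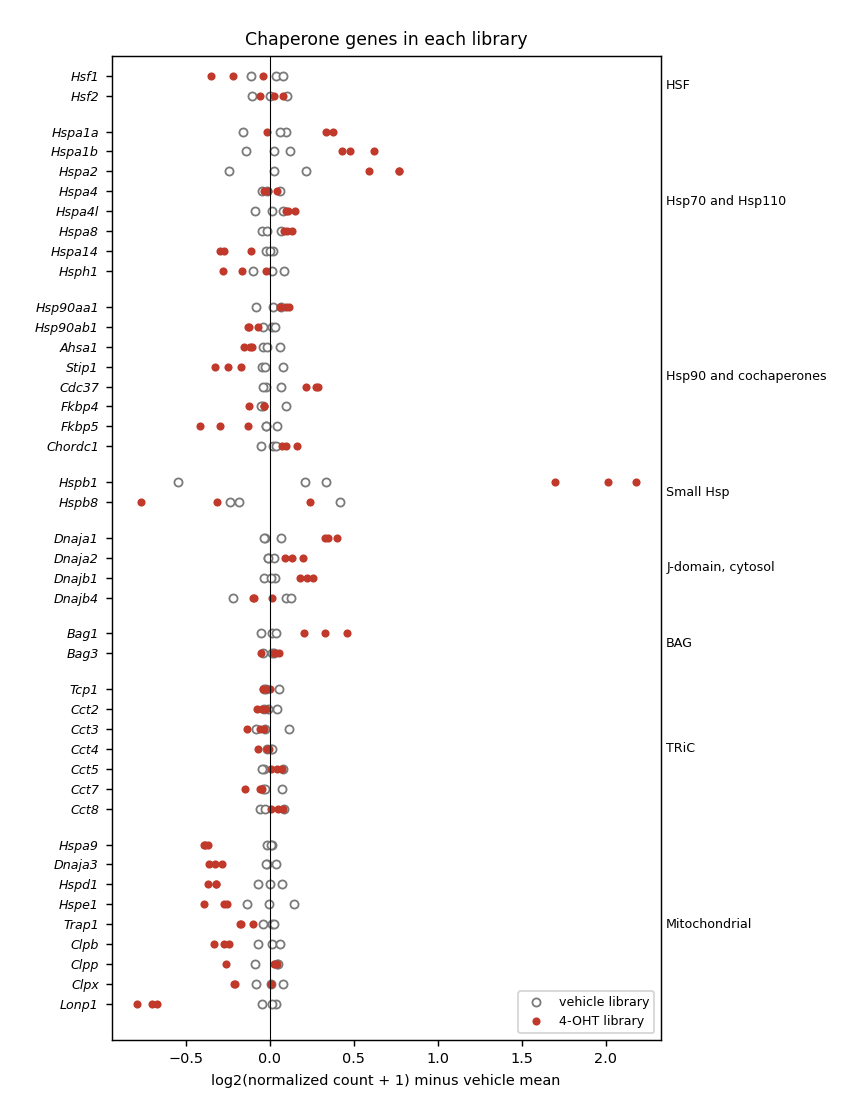
Each library's log2(normalized count + 1) minus the vehicle mean of that gene (x axis) for the 42 genes, with open circles for the 3 vehicle and filled circles for the 3 4-OHT libraries. The groups lie apart for Hspb1, Hspa1b, Hspa2, Dnaja1, Hspa9 and Lonp1 and overlap for Hsf1, Hspa1a, Bag3 and Clpp.

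Promoter sequences are shown for some of the members whose windows held units of a heat shock element, the motif that heat shock factors bind. Such an element is a row of alternating GAA and TTC units with any 2 bases between them. In RefSeq windows (GRCm38.p6), 36 of the 42 members had a stretch of 250 bases before their annotated start, and these were searched for 3 units (GAANNTTCNNGAA or TTCNNGAANNTTC) and for 2 units (GAANNTTC or TTCNNGAA, which are contained in the former). The 6 members without a window were Hsf1, Hspa8, Hsp90aa1, Hsp90ab1, Cct4 and Hspa9. Their promoters were not searched, so that nothing is known here of elements in them. Both forms of each motif were searched, which covers both strands. Of 32851 such windows over all genes, 153 (0.466%) held at least 3 units and 4218 (12.8%) held at least 2. Among the 36 members with a window, rows of at least 3 units were found for Hspd1 and Hspe1, which share a single stretch of 4 alternating units: their RefSeq starts lie 216 bases apart on chromosome 1 (55087932 and 55088148), head to head, and the same bases read on opposite strands. At chr1:55088053-55088082, with the units in capitals, the minus strand towards Hspd1 (capitals from -144 to -127 before its start) and the plus strand towards Hspe1 (-89 to -72) read as follows, the stretch lying in an exon that GENCODE vM21 assigns to a longer Hspd1 transcript.
Hspd1: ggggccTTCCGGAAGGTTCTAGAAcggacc
Hspe1: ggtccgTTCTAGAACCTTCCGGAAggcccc
Both genes fell. At least 2 units stood in the windows of 12 of the 36 members with a window, and of 6 of the 17 called members that had one. Called members thus held such units about as often as all members with a window did. The 12.8% counts single windows, whereas some members had several, so it is not a like comparison. The next 3 were picked for display after their values were seen. Hspa1a (chr17:34972223-34972290, minus strand) and Hspa1b (chr17:34959305-34959372, minus strand) carry the same stretch around a unit pair from -104 to -97, and Hspb1 (chr5:135887772-135887859, plus strand) carries pairs from -117 to -110 and from -97 to -90.
Hspa1a: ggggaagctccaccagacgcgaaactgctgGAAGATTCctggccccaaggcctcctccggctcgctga
Hspa1b: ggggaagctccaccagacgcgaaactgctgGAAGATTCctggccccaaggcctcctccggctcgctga
Hspb1: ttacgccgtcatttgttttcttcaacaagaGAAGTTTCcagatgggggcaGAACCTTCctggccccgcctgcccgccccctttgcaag
Of these, Hspb1 and Hspa1b rose, and Hspa1a did not pass the test. A match is a description of letters and not a binding site.

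Of the heat shock factors Hsf1 fell and Hsf2 did not pass. Hsf1, the main activator of the stress response, read 998, 899 and 1030.2 normalized counts in vehicle libraries 1, 2 and 3 and 946, 838 and 765 in the 4-OHT libraries. It fell (log2 fold change -0.20, SE 0.076, adjusted p = 0.036), although 4-OHT library 1 lay above vehicle library 2. The call for Hsf1 was lost when vehicle library 1 or 3 (log2 fold changes -0.19 and -0.16, adjusted p = 0.108 and 0.141) or 4-OHT library 2 or 3 (-0.20 and -0.13, adjusted p = 0.0811 and 0.208) was left out, with 4-OHT library 1 alone (-0.042, adjusted p = 0.769), and with DESeq2 on all libraries (-0.20, adjusted p = 0.0535). Hsf2, a second factor with roles in development, read 206, 192 and 222 in vehicle and 218, 209 and 198 in 4-OHT, and the groups overlapped (log2 fold change 0.016, SE 0.11, adjusted p = 0.92).

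Of the 8 Hsp70 and Hsp110 genes, Hspa1b and Hspa2 rose, Hspa14 fell and 5 did not pass, and their median log2 fold change was 0.11. Hspa1b, one of the paired stress-inducible Hsp70 genes, read 1205, 1008 and 1128 normalized counts in vehicle and 1709, 1497 and 1546 in 4-OHT. The lowest 4-OHT library lay above the highest vehicle library, and the gene rose (log2 fold change 0.51, SE 0.068, adjusted p = 4.4e-06). Its neighbour Hspa1a was less abundant, at 166, 139 and 162 in vehicle and 196, 202 and 154 in 4-OHT (log2 fold change 0.23, SE 0.13, adjusted p = 0.17). For Hspa1a 4-OHT library 3 lay within the vehicle range, and without it the difference passed (log2 fold change 0.36, adjusted p = 0.0454). Of the stretches of 100 bases in Hspa1b transcripts, 49.9% also occur in Hspa1a (GENCODE vM21), and 47.1% of those of Hspa1a in Hspa1b, so that the split of reads between the pair is uncertain. Hspa2, an Hsp70 best known from testis, read 110.1, 133 and 151 in vehicle and 196, 223 and 223 in 4-OHT and rose (log2 fold change 0.71, SE 0.13, adjusted p = 2.2e-04), with no stretch of its transcripts shared with another gene.

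Hspa8, the constitutive Hsc70 that serves most cytosolic folding, was by far the most abundant of the family. It read 45535, 46459 and 49369 normalized counts in vehicle and 51496, 50508 and 49879.6 in 4-OHT. Of its 100-base stretches 28.5% occur in other annotated genes, most of them in Gm15459. All 3 4-OHT values lay above the vehicle values, but the difference of 0.10 log2 units did not pass (SE 0.045, adjusted p = 0.069). It passed with DESeq2 (adjusted p = 0.0416) and with limma without vehicle library 3 (0.14, adjusted p = 0.0152), and under quantile normalization it turned to -0.13 (adjusted p = 0.00845). The Hsp110 proteins, which exchange nucleotide on Hsp70, did not pass. Hspa4 read 7334, 7759 and 7206 in vehicle and 7262, 7651 and 7364 in 4-OHT (log2 fold change -0.0011, SE 0.044, adjusted p = 0.99). Hspa4l read 1860.3, 1771 and 1651 in vehicle and 1952, 1892 and 1883 in 4-OHT without overlap (log2 fold change 0.12, SE 0.054, adjusted p = 0.085). Without vehicle library 1 Hspa4l was called higher by limma (0.16, adjusted p = 0.046). Hsph1, the stress-inducible Hsp110, read 1769.8, 2015 and 1919 in vehicle and 1865, 1564 and 1695 in 4-OHT, with 4-OHT library 1 inside the vehicle range (log2 fold change -0.16, SE 0.064, adjusted p = 0.054). Hsph1 was called lower without that library (-0.22, adjusted p = 0.00688), without vehicle library 1 (adjusted p = 0.0256), with edgeR (0.048) and under quantile normalization (0.0163). On rows with a mean of at least 50 limma also called it lower (0.0498), whereas without 4-OHT library 2 the value was -0.095 and did not pass. Hspa14, an Hsp70 that works at the ribosome, fell from 842, 819 and 832 in vehicle to 686, 676 and 767 in 4-OHT (log2 fold change -0.23, SE 0.067, adjusted p = 0.0091), the groups lying apart.

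Neither cytosolic Hsp90 passed the limma test, and of the cochaperones Cdc37 rose while Stip1 and Fkbp5 fell. Hsp90ab1, the constitutive cytosolic Hsp90, read 67512, 70100.1 and 70979.6 normalized counts in vehicle and 66153, 63485 and 63867 in 4-OHT. The groups lay apart by a small margin and the difference did not pass (log2 fold change -0.11, SE 0.045, adjusted p = 0.058), while edgeR (adjusted p = 0.0269), DESeq2 (0.0139) and quantile normalization (0.00158) called it lower. Hsp90aa1, the inducible form, read 11585, 12415 and 12814 in vehicle and 13089.7, 13262 and 12759.6 in 4-OHT with overlap (log2 fold change 0.088, SE 0.045, adjusted p = 0.12). It was called higher by limma without vehicle library 3 (0.12, adjusted p = 0.0424), and its sign turned under quantile normalization (-0.029). For Hsp90aa1 38.0% of the 100-base stretches occur in other annotated genes, most of them in Gm12346, and ratios with Hsp90aa1 or Hspa8 carry that uncertainty. Within each library the ratio of Hsp90aa1 to Hsp90ab1, in normalized counts per kilobase of transcript, was 0.132, 0.136 and 0.139 in vehicle and 0.152, 0.160 and 0.153 in 4-OHT, so that every 4-OHT ratio lay above every vehicle ratio. An exact permutation test of 3 libraries against 3 cannot go below p = 0.1, and ratios are therefore given without one.

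Among the cochaperones Cdc37, which brings protein kinases to Hsp90, rose from 6618, 6539 and 7041 normalized counts in vehicle to 8205, 8136 and 7817 in 4-OHT (log2 fold change 0.26, SE 0.044, adjusted p = 7.8e-05). Stip1, the adaptor that joins Hsp70 to Hsp90, fell from 5002, 5058 and 5442 in vehicle to 4575, 4121 and 4337 in 4-OHT (log2 fold change -0.25, SE 0.049, adjusted p = 3.4e-04). Fkbp5, an immunophilin of steroid receptor complexes, fell from 1004, 1002 and 1049.6 in vehicle to 761, 827 and 931 in 4-OHT (log2 fold change -0.28, SE 0.070, adjusted p = 0.0028). For all of these genes the groups lay apart, although 4-OHT library 3 of Fkbp5 stood close to the vehicle range. The related Fkbp4 read 10600.4, 10529.8 and 11680 in vehicle and 10644, 10670.2 and 10032 in 4-OHT and overlapped (log2 fold change -0.065, SE 0.047, adjusted p = 0.29). Under quantile normalization Fkbp4 was called lower (-0.17, adjusted p = 0.00693). Ahsa1, which stimulates the Hsp90 ATPase, read 1644, 1675 and 1768 in vehicle and 1560, 1575 and 1523 in 4-OHT (log2 fold change -0.13, SE 0.052, adjusted p = 0.056). Chordc1, a zinc-binding cochaperone, read 1333, 1404 and 1419 in vehicle and 1548, 1481 and 1458 in 4-OHT (log2 fold change 0.11, SE 0.054, adjusted p = 0.10). Neither passed in the limma test, although their groups did not overlap. Ahsa1 was called lower by edgeR (adjusted p = 0.0477), under quantile normalization (0.0142) and with limma on rows with a mean of at least 50 (0.0494).

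The largest change of any chaperone gene was in a small heat shock protein present at a low level. Hspb1, known as Hsp25 in the mouse, holds unfolded proteins without ATP and binds actin filaments. It read 25.2, 43.3 and 47.2 normalized counts in vehicle and 123, 172 and 154 in 4-OHT, so that the lowest 4-OHT library held more than the highest vehicle library by a wide margin. Hspb1 rose by 1.96 log2 units (SE 0.22, adjusted p = 4.7e-07), and over the alternatives the value ran from 1.69 to 2.13. Hspb1 passed in every alternative. Of its 100-base stretches 44.0% also occur in the pseudogene Hsp25-ps1, and reads from the pair could be divided between them. Hspb8, a small heat shock protein that works with Bag3, was close to the lower limit, at 17.7, 11.3 and 10.9 in vehicle and 7.23, 15.5 and 10.2 in 4-OHT (log2 fold change -0.28, SE 0.43, adjusted p = 0.63), and its interval of -1.17 to 0.61 covers changes in either direction, which were not detectable at this depth.

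J-domain partners of cytosolic Hsp70 rose in 3 of 4 cases, beside 22.7% of all rows tested that were called higher. Dnaja1, a farnesylated Hsp40, read 4345, 4330 and 4635 normalized counts in vehicle and 5849.5, 5635 and 5569 in 4-OHT and rose (log2 fold change 0.36, SE 0.045, adjusted p = 2.2e-06). Dnajb1, the Hsp40 induced by heat, rose from 1782, 1704 and 1752 in vehicle to 2037, 1974 and 2090 in 4-OHT (log2 fold change 0.22, SE 0.050, adjusted p = 0.0013). Dnaja2, close in sequence to Dnaja1, rose from 4944, 5068 and 4959 in vehicle to 5462, 5721 and 5319 in 4-OHT (log2 fold change 0.14, SE 0.044, adjusted p = 0.014). In all of these the groups lay apart, but the call for Dnaja2 was lost without vehicle library 1 (adjusted p = 0.052) or 4-OHT library 2 (0.0524) and under quantile normalization (0.198). Dnajb4 read 144, 115 and 146 in vehicle and 135, 125 and 125 in 4-OHT with overlap (log2 fold change -0.062, SE 0.14, adjusted p = 0.75). The ratio of Dnaja1 to Dnaja2 per kilobase was 0.760, 0.739 and 0.808 in vehicle and 0.926, 0.852 and 0.905 in 4-OHT, without overlap. For Dnaja1, 16.6% of its 100-base stretches occur in other annotated genes.

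Of the BAG proteins, which release clients from Hsp70, Bag1 rose and Bag3 did not pass. Bag1, which also binds the proteasome, read 2176, 2271 and 2312 normalized counts in vehicle and 2591, 2833 and 3102 in 4-OHT (log2 fold change 0.33, SE 0.058, adjusted p = 1.0e-04). Every 4-OHT library lay above every vehicle library. Bag3, which directs clients to autophagy and is a known target of heat shock factor 1, read 1087, 1049 and 1098 in vehicle and 1119.9, 1098 and 1040.4 in 4-OHT (log2 fold change 0.010, SE 0.058, adjusted p = 0.90, 95% interval -0.11 to 0.13).

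TRiC, the ring-shaped cytosolic chaperonin that folds actin and tubulin, was represented by 7 of its subunits, and none passed the limma test. Their log2 fold changes lay between -0.086 and 0.044 and the bounds of their 95% intervals between -0.18 and 0.14. The number past an unadjusted p of 0.05 was 0, edgeR and DESeq2 called 0, and quantile normalization called 3 lower (Cct2, Cct3 and Cct7) and turned the small positive values of Cct5 and Cct8 to -0.028 and -0.035. Tcp1, the subunit that gave the complex its name, read 5764, 5806 and 6122 normalized counts in vehicle and 5741, 5794 and 5894 in 4-OHT. Cct2 read 8105, 8248 and 8547 in vehicle and 8159, 8046 and 7861 in 4-OHT, and Cct3 read 6173, 6404 and 7068 in vehicle and 6381, 6287 and 5955 in 4-OHT. In each of these the vehicle and 4-OHT values overlapped. Cct4 read 4896, 4979.7 and 5006 in vehicle and 4894, 4934 and 4717 in 4-OHT, and Cct5 read 7820.1, 7754 and 8453 in vehicle and 8245, 8403 and 8043 in 4-OHT. Cct8 read 6253, 6381 and 6885 in vehicle and 6731, 6856 and 6523 in 4-OHT. These also overlapped. Cct7 was the single subunit whose groups did not, at 7228, 7291 and 7848 in vehicle and 7209, 7150.1 and 6710.5 in 4-OHT (log2 fold change -0.086, SE 0.046, adjusted p = 0.14). Per kilobase of transcript the most abundant subunit exceeded the least abundant by a factor of 2.10 to 2.26 in the vehicle libraries and of 2.26 to 2.29 in the 4-OHT libraries. Cct6a, the subunit that was not among the members, stood at 0.024 log2 units (adjusted p = 0.69; -0.050 under quantile normalization).

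Most of the mitochondrial members fell. Of the 9 genes, 7 passed as lower, each without overlap of the groups, and all 9 log2 fold changes were below 0, from -0.72 to -0.065. Over all rows tested, 21.0% were called lower and 25.3% lay lower without overlap. edgeR and DESeq2 also called 7 lower and 0 higher. Lonp1, the ATP-dependent protease of the matrix, read 7044, 6923 and 6633 normalized counts in vehicle and 3958, 4302 and 4215 in 4-OHT. The highest 4-OHT library lay well below the lowest vehicle library, the fall was 0.72 log2 units (SE 0.046, adjusted p = 2.7e-10), and over the alternatives it ran from -0.81 to -0.69. Hspa9, or mortalin, the Hsp70 of the import motor, fell from 13620.4, 13945 and 13852 in vehicle to 10535, 10708 and 10576 in 4-OHT (log2 fold change -0.38, SE 0.040, adjusted p = 2.3e-07). Its 3 values in each group were nearly the same. Dnaja3, the J-domain partner of Hspa9, fell from 1743, 1733 and 1807 in vehicle to 1401, 1370.3 and 1447 in 4-OHT (log2 fold change -0.32, SE 0.052, adjusted p = 3.8e-05).

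The chaperonin pair of the matrix went in parallel. Hspd1 (Hsp60, the barrel) read 9986, 10516 and 11039.6 normalized counts in vehicle and 8394, 8129 and 8405 in 4-OHT and fell (log2 fold change -0.34, SE 0.045, adjusted p = 4.1e-06). Hspe1 (Hsp10, the lid) read 2319, 2539 and 2811 in vehicle and 2109.6, 2131 and 1941 in 4-OHT and fell (log2 fold change -0.31, SE 0.062, adjusted p = 4.2e-04). The ratio of Hspd1 to Hspe1 per kilobase was 1.38, 1.32 and 1.25 in vehicle and 1.27, 1.22 and 1.38 in 4-OHT, and these ranges overlapped. These are the genes that share the heat shock element printed above, and Hspd1 and Hspe1 overlap by 112 bases in the annotation (GENCODE vM21), where reads cannot be assigned without strand. In addition 23.9% of the 100-base stretches of Hspd1 and 11.0% of those of Hspe1 occur in other annotated genes, mostly pseudogenes for Hspd1. Lonp1, Hspa9, Trap1, Clpb, Clpp and Clpx shared none.

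Clpb, a disaggregase of the intermembrane space, fell from 1328, 1254 and 1374 normalized counts in vehicle to 1091, 1046 and 1112 in 4-OHT (log2 fold change -0.28, SE 0.058, adjusted p = 4.8e-04). Trap1, the mitochondrial Hsp90, showed the smallest called fall, from 2509.7, 2601 and 2625 in vehicle to 2402, 2286 and 2277 in 4-OHT (log2 fold change -0.15, SE 0.048, adjusted p = 0.014). Its call was lost without vehicle library 2 (adjusted p = 0.0575) or 4-OHT library 3 (0.0614). The subunits of the other matrix protease did not pass. Clpp, its proteolytic part, read 924, 846 and 927 in vehicle and 749, 913 and 925 in 4-OHT (log2 fold change -0.065, SE 0.076, adjusted p = 0.53), with 4-OHT library 1 low and the others inside the vehicle range. Clpx, the unfoldase, read 829, 931 and 883 in vehicle and 759, 883 and 763 in 4-OHT (log2 fold change -0.14, SE 0.071, adjusted p = 0.13). It was called lower without 4-OHT library 2 (-0.21, adjusted p = 0.0255).

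Summed over the group, the mitochondrial members took 0.212%, 0.216% and 0.219% of the recovered reads in vehicle and 0.158%, 0.156% and 0.158% in 4-OHT. The TRiC members took 0.243%, 0.245% and 0.261% in vehicle and 0.238%, 0.234% and 0.228% in 4-OHT. On this scale the TRiC sums did not overlap either, but the total of all normalized counts was itself higher in 4-OHT (19906869 to 20304448) than in vehicle (19017317 to 19133415), which lowers every share relative to the normalized counts. The Hsp70 and Hsp110 sum lay between 0.309% and 0.326% in vehicle and between 0.316% and 0.328% in 4-OHT, the Hsp90 sum between 0.554% and 0.586% in vehicle and between 0.510% and 0.535% in 4-OHT, and all 42 genes together took 1.40% to 1.48% in vehicle and 1.31% to 1.35% in 4-OHT. As shares of recovered reads, the Hsp90, TRiC and mitochondrial sums were each lower in all 4-OHT libraries than in any vehicle library. The higher total in 4-OHT bears on each of them. On the scale of normalized counts, 7 of the 9 mitochondrial members were called lower. On that scale 0 of the 7 TRiC members were called, and of the 8 Hsp90 members 2 were lower and 1 was higher. No test of the difference between groups of genes was made.

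**Figure D3:**
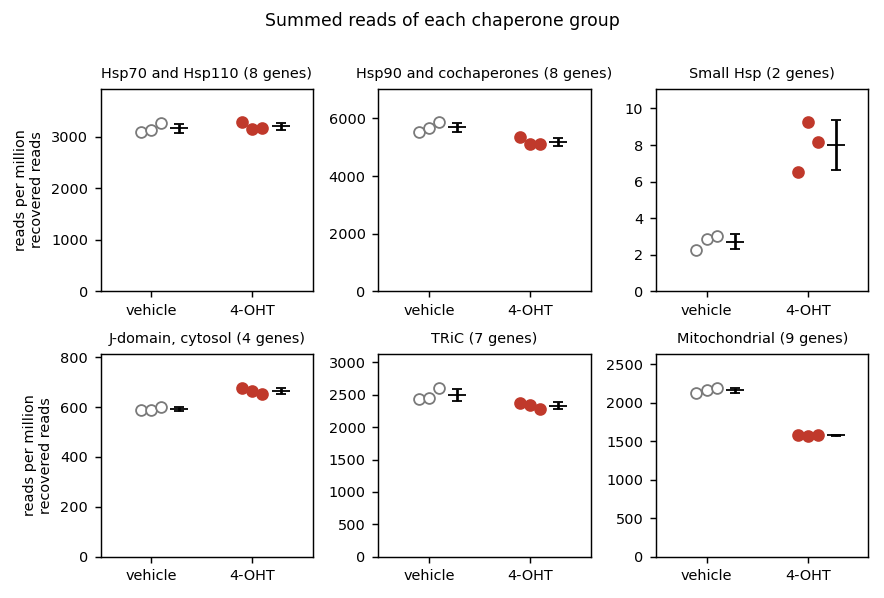
Reads per 1000000 recovered reads (y axis, from 0) summed over the genes of 6 chaperone groups in the 3 vehicle (open) and 3 4-OHT (filled) libraries, with the mean and SD beside them. The mitochondrial sum was 2119 to 2193 in vehicle and 1565 to 1580.1 in 4-OHT, and the small heat shock protein sum was 2.26 to 3.04 in vehicle and 6.54 to 9.24 in 4-OHT.

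Ratios within a library do not depend on its size factor and compared genes of different compartments or of the same one. Hspa9 relative to Hspa8, the mitochondrial against the cytosolic Hsp70, was 0.235, 0.236 and 0.220 per kilobase in vehicle and 0.161, 0.166 and 0.166 in 4-OHT. Mean ± SD was 0.230 ± 0.0086 and 0.165 ± 0.0034 (n = 3 each), a difference larger than the spread of either group. Hspd1 relative to Tcp1, the mitochondrial against the cytosolic chaperonin, was 1.75, 1.83 and 1.82 in vehicle and 1.48, 1.42 and 1.44 in 4-OHT. Lonp1 relative to Clpp, which belong to separate proteases of the matrix, was 2.54, 2.73 and 2.38 in vehicle and 1.76, 1.57 and 1.52 in 4-OHT. None of these overlapped between the groups. The ratios restate the values of single genes given above and are not separate evidence. No share over other pairs of genes was computed, and of single rows tested 52.1% did not overlap. Trap1 relative to Hsp90ab1, the mitochondrial against the cytosolic Hsp90, also did not overlap, at 0.0404, 0.0403 and 0.0402 in vehicle and 0.0394, 0.0391 and 0.0387 in 4-OHT. Hspa1b relative to Hspa8 was 0.0226, 0.0185 and 0.0195 in vehicle and 0.0283, 0.0253 and 0.0265 in 4-OHT, again without overlap. Clpx relative to Clpp, the parts of 1 protease, was 0.306, 0.375 and 0.324 in vehicle and 0.345, 0.330 and 0.281 in 4-OHT. For this ratio the groups overlapped.

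**Figure D4:**
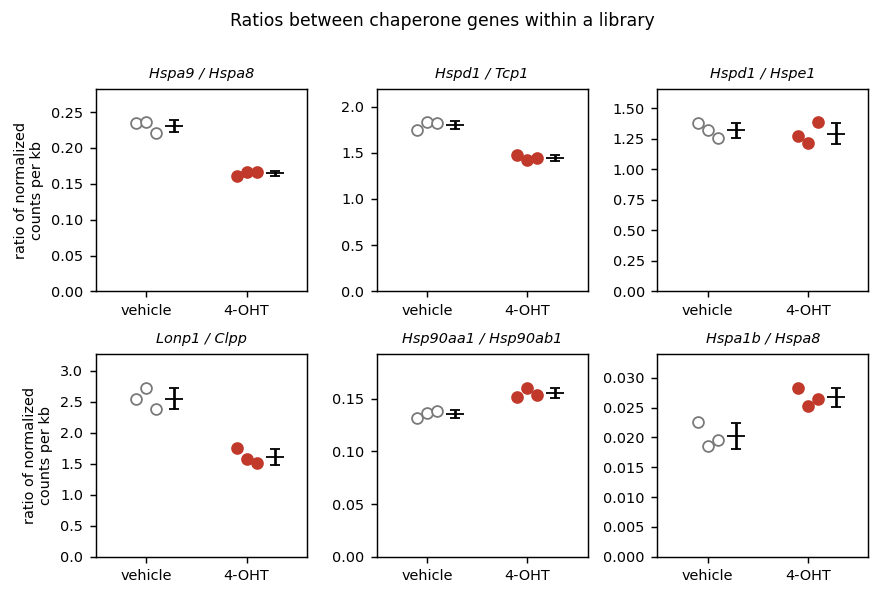
Ratio of normalized counts per kilobase between 6 pairs of chaperone genes within each library (y axis, from 0), for 3 vehicle (open) and 3 4-OHT (filled) libraries with the mean and SD. Hspa9 over Hspa8 had means of 0.230 in vehicle and 0.165 in 4-OHT without overlap, Hspa1b over Hspa8 and Hsp90aa1 over Hsp90ab1 were higher in every 4-OHT library, and Hspd1 over Hspe1 overlapped.

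Levels per kilobase of transcript spanned a wide range. In vehicle, Hsp90ab1 (mean of 27592 normalized counts per kilobase) and Hspa8 (19683) stood above all others and apart from each other. Fkbp4 (4933) followed without overlap, and next came Hspa9 (4528), Hspd1 (4339) and Cct5 (4322), whose neighbouring ranges overlapped. The lowest were Hspa1a (52.5), Hspa2 (52.0) and Hspb1 (42.7), which overlapped with their neighbours, and Hspb8 (7.34) below them. In 4-OHT Hspa9 went from rank 4 to 7, Hspd1 from 5 to 8 and Lonp1 from 15 to 20, while Hspa1b went from 31 to 26 and Hspb1 from 41 to 37. Lengths are those of 1 annotated transcript per gene and set the order but not the changes.

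**Figure D5:**
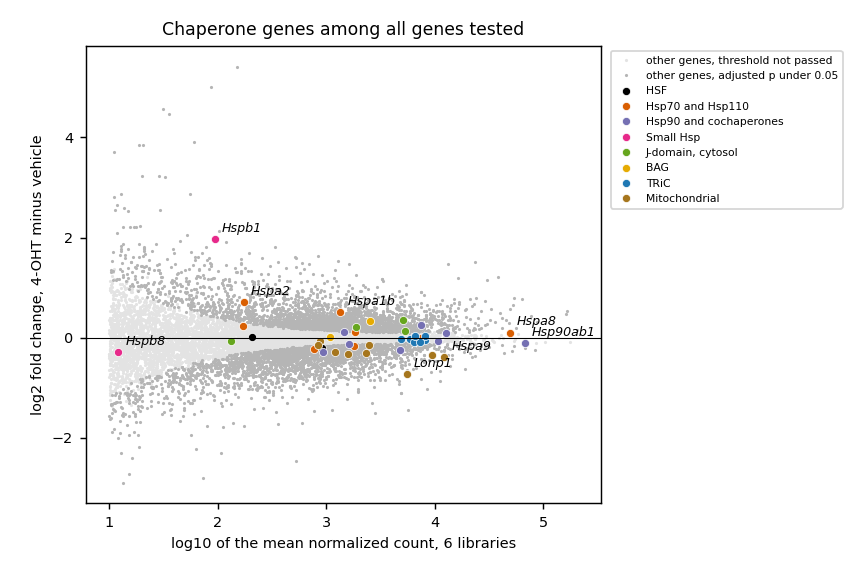
Log2 fold change (y axis, 4-OHT minus vehicle) against the log10 of the mean normalized count over 6 libraries (x axis) for the 13210 rows tested, in grey, with the 42 chaperone genes coloured by role. Chaperone genes lie among the other genes at every level, the TRiC genes cluster near 0 at a high level, and the mitochondrial genes lie below 0, Lonp1 lowest at -0.72.

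A wider list of 72 other chaperone genes gave no common direction. Of these 69 were found and 62 tested, 20 were higher and 11 lower, and their median log2 fold change was 0.014. The called share was 50%, beside 43.6% of all rows tested (22.7% higher, 21.0% lower). The counts for parts of the list that follow are to be read beside the same shares over all rows. The 18 other mitochondrial chaperones and proteases split into 4 higher, 5 lower and 9 not passing, with a median of -0.034, beside 7 of 9 lower among the mitochondrial members. Bcs1l, an assembly factor of respiratory complex III, had the largest fall there (log2 fold change -0.52, SE 0.11, adjusted p = 7.7e-04). Of 8 tested genes listed with TRiC and prefoldin, which hands unfolded actin and tubulin to TRiC, 5 were higher. These were Pfdn1 (0.24), Pfdn4 (0.36), Pfdn5 (0.17), Vbp1 (0.22) and Pdcl3 (0.48). The prefoldin subunits Pfdn2 (0.018, adjusted p = 0.84) and Pfdn6 (-0.11, adjusted p = 0.20) did not pass, nor did Cct6a. Of 15 other J-domain proteins 6 were higher and 2 lower. Among 9 tested cochaperones of Hsp90, 4 were higher and 2 lower. Outside these groups, falls of at least 0.5 log2 units were found for the small heat shock protein Hspb6 (log2 fold change -0.76, SE 0.20, adjusted p = 0.0038) and Bag2, a BAG protein that inhibits the ubiquitin ligase of Hsp70 clients (log2 fold change -0.52, SE 0.098, adjusted p = 2.2e-04). Hsbp1, which binds heat shock factor 1 and restrains it, rose (log2 fold change 0.35, SE 0.052, adjusted p = 1.5e-05).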

How the data were processed

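RNA from 3 vehicle and 3 4-OHT libraries of mouse colonic organoids was deposited as 1 matrix of normalized counts. This signal was made by the authors by dividing the reads counted on each gene by a size factor per library (STAR, DESeq2 and GRCm39 per the submitters' processing notes), and the counter, annotation and versions are not given in the sources used here. Each library's values were multiples of the smallest one (100% whole within 0.1 reads), which gave back the reads. Members and gene lists were chosen with earlier results of these data known. limma-trend (limma 3.58.1, R 4.3.3) was fitted on log2(normalized count + 1) for rows with a mean of at least 10, without a block, with Benjamini-Hochberg adjustment over 13210 rows and a threshold of 0.05, and was tested on simulated data. Fold changes are on that log2 scale and understate low genes. edgeR 4.0.16 and DESeq2 1.42.0 on recovered reads were alternatives, as were other pseudocounts, filters, scalings (TMM, quantile), the replicate number as a block, each library left out, and, added after seeing the data, 4-OHT library 1 alone against vehicle. Transcript lengths and shared stretches came from GENCODE vM21 (GRCm38). All 42 members, other chaperone genes past the threshold with a change of at least 0.5 log2 units, Cct6a, Prkci and Prkcz are named by rule, as are promoters of called members with 3 units. Pfdn1, Pfdn2, Pfdn4, Pfdn5, Pfdn6, Vbp1, Pdcl3 and Hsbp1, and the promoters of Hspa1a, Hspa1b and Hspb1, were chosen after their values were seen.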

Additional observations from a re-analysis of the deposited data

How the results depend on the processing

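Of the 19 chaperone genes past the threshold, 16 passed under all 16 alternatives, the exceptions being Hsf1, Dnaja2 and Trap1. Of 671 values of single members under the alternatives, 621 kept their direction and their side of the threshold, 13 lost significance, 22 gained it and 15 changed sign, of which 1 did so past the threshold. That 1 was Hspa8 under quantile normalization (-0.13), where Hsp90aa1 (-0.029), Cct5 (-0.028), Cct8 (-0.035) and Cct6a (-0.050) also turned negative, and where the falls numbered 19 among all members, 12 among cytosolic and nuclear members and 3 in TRiC. The cause was not tested. With edgeR 7 cytosolic and nuclear members were lower. With 4-OHT library 1 alone against vehicle, a design with fewer samples, 1991 rows were higher, other chaperone genes numbered 11 higher and 7 lower, and Dnajb4 turned to 0.012. Leaving out 1 library at a time gave 7 to 10 members higher and 9 to 12 lower, and 6 to 8 mitochondrial members lower. Over these fits the log2 fold change crossed 0 for Hsf2 (-0.037 to 0.068), Hspa4 (-0.023 to 0.03), Dnajb4 (-0.17 to 0.00082), Bag3 (-0.012 to 0.041), Tcp1 (-0.037 to 0.0061) and Clpp (-0.12 to 0.034). The replicate numbers did not pair the libraries (correlation of deviations -0.0074, 0.030 and -0.020 for same-numbered libraries, and not every library correlated best with its own number). Blocking on the replicate number gave 8 members higher and 11 lower, and 2938 rows higher and 2699 lower over all genes. Depth limits Hspb8 and, less so, Hspb1, whose counts were low.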
